A study of Mus musculus with 3 samples.

Results

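Nuclear receptors other than the vitamin D receptor gene Vdr and the retinoid X receptor genes Rxra and Rxrb were followed in Cyp27b1-knockout mpkDCT cells, a mouse line named for the distal convoluted tubule of the kidney. The set holds 43 genes of 36403 gene names on the array, chosen by symbol but with earlier results of these data known. Each was read from its brightest probe without an outlier flag. The study had 3 cultures, each on 1 one-colour Agilent mouse array labelled with Cy3. The groups were cells given 1e-07 M calcitriol (1,25(OH)2D3), cells given 1e-07 M calcidiol (25(OH)D3), and cells given vehicle. Treatment lasted 24 h, in a medium free of phenol red whose 2% serum was charcoal-stripped, put on the cells 24 h earlier. All 3 cultures carried the CRISPR-Cas9 knockout, per the labels, so no group without it was compared. Whether the line was 1 clone was not given in the sources used here, the sample titles carry a tag (siCT) that these sources do not explain, and 1 description names the calcidiol sample as 25(OH)2D3. With 1 array per group there were no replicates, so no test, p-value or standard deviation could be given.

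Nuclear receptors are transcription factors that bind small lipophilic ligands, or no known ligand in the case of orphan members, and recruit coactivators or corepressors to DNA. Calcitriol acts through Vdr, which binds DNA together with a retinoid X receptor, and many of the other receptors share that partner. Calcidiol is the precursor that the enzyme Cyp27b1 converts to calcitriol by adding 1 hydroxyl group. Members known for roles in the distal nephron are the glucocorticoid receptor Nr3c1 and the mineralocorticoid receptor Nr3c2, which adjust salt transport, and the clock repressors Nr1d1 and Nr1d2.

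Arrays held 62976 spots each, of which 49.7% to 51% of non-control spots were well above background by the scanner's own call. The signal is given below in the scanner's linear units, whereas differences are on the log2 scale after each array's 75th percentile was subtracted, and ± is the scanner's own error carried into the difference. That error leaves out variation between cultures, and the number of arrays limits the precision. The targeted gene Cyp27b1 lay near background on every array, with signals of 7.05 with calcitriol, 3.82 with calcidiol and 2.91 with vehicle, so its probe did not check the knockout. The vitamin D target Cyp24a1 read 5443 with calcitriol, 288.5 with calcidiol and 2.68 with vehicle, or at least 403-fold (calcitriol) and 20.1-fold (calcidiol) above vehicle. Vdr read 1386, 1379 and 1560 in the same order. Of 11 markers of the distal convoluted tubule, 3 were well above background on all arrays (Wnk1, Wnk4 and Stk39) and 7 were on none, among them the defining transporter Slc12a3, Trpm6 and Calb1. The general tubule markers Cdh16, Pax2, Pax8 and Emx2 were measured, and Cdh1, Epcam, Krt8 and Krt18 were not well above background, so the label of the line was met by tubule markers but not by the defining transporter of its segment.

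The results turn mainly on Nr4a1, Ppara and Nr1d2, so the starts of their probes are shown, as the array files give them, 5′ to 3′ and in lower case (the first 30 bases of 60). The Nr4a1 probe lies at chr15:101105071-101105130 on the + strand of mm9, the build named in the file headers. The brighter Ppara probe lies at chr15:85632110-85632169 on the + strand. The 3 Nr1d2 probes lie within the same short stretch of chromosome 14 on the - strand, the brightest of them at chr14:19036859-19036918. An exon or untranslated region was not assigned, because no annotation of that build was used here. No member probe shared 20 bases with a probe of another gene name.
Nr4a1 probe: ctcttccgctctccttccatgtgtacataa
Ppara brighter probe: ctttgaaaacctacaagtcaaggtgtggcc
Ppara dimmer probe: cctgtaagctgatgaatgtaaagagttaat
Nr1d2 brightest probe: gggcattatctcatcagacttatggggatt
Nr1d2 probe 2: ccagaactgttagtattgcttgtgatgctt
Nr1d2 probe 3: ctgtgaggggagctcagatagatgtatctt

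The promoters of Nr4a1 and Nr1d2 are shown next, because these genes had the lowest and the highest difference with calcitriol. Both are from RefSeq with the GRCm38.p6 assembly, 250 bases up to the start site, on the strand of the gene, at chr15:101266596-101266845 (+) for Nr4a1 and chr14:18239107-18239356 (-) for Nr1d2. Capitals mark TGCGTCA, an element of AP-1 type known from the Nr4a1 promoter, and AGGTCA, the hexamer that many nuclear receptors bind.
Nr4a1 promoter: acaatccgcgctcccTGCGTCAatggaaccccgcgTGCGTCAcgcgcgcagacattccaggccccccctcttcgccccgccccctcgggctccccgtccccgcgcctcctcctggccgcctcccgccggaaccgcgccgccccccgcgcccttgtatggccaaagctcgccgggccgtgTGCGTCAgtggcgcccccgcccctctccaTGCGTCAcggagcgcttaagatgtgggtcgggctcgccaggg
Nr1d2 promoter: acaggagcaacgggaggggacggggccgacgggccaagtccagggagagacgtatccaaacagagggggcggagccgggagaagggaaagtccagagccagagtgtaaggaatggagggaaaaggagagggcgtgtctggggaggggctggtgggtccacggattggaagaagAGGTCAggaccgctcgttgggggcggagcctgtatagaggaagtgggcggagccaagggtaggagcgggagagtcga
TGCGTCA occurred 4 times before the Nr4a1 start, at offsets -235, -215, -71 and -42, and in no other member promoter at hand. It was found, on either strand, in 2.12% of 32851 RefSeq mouse promoters taken from 250 bases before to 50 after the start, and it was searched only after the Nr4a1 sequence had been read. AGGTCA occurred once before Nr1d2, at offset -77. Promoters were at hand for 39 of the 43 members, 58 promoters in all, and 19% of these held AGGTCA against 16.3% of all promoters. A direct repeat of AGGTCA spaced by 3 bases, the arrangement bound by Vdr with a retinoid X receptor, was in no member promoter and in 0.00609% of all promoters. The NBRE, AAAGGTCA, which NR4A receptors bind and which contains AGGTCA, was in 1 member promoter (Rxrg), or 1.72%, against 1.51% of all. The E-box CACGTG of the clock factors was in 6 member promoters of 5 genes (10.3% against 7.15%), where 2 overlapping Rara promoters held the same site. The cyclic AMP element TGACGTCA was in 2 member promoters (3.45% against 1.79%). These are matches of letters and are given as a description.

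RNA of most of the family was detected in this line. Of the 43 receptors, 26 (60.5%) were well above background on all 3 arrays, where 45% of all gene names were. The 43 receptors had 93 probes to pick from, and the 36403 gene names had 56605. The 2 shares were not matched for the number of probes. Nr1d1 was so on 2 arrays, and 16 were on none by any probe without a flag. Signals of the 16, on the probe read for each, lay at or under 12.4. The 16 were Nr0b1 and Nr0b2, the atypical receptors without a DNA-binding domain; Nr1h3, the oxysterol receptor LXRα; the xenobiotic receptors Nr1i2 and Nr1i3; the neural and retinal Nr2e1 and Nr2e3; Nr3c2; Thrb; Rarb; Rxrg; Pparg; the epithelial Hnf4a and Hnf4g; the progesterone receptor Pgr; and Esrrb. In bulk RNA, fewer cells that express a gene and less of its RNA per cell cannot be told apart. Several families were thus read through a single measured member: Nr1h2 for the liver X receptors, Thra for the thyroid hormone receptors and Nr3c1 for the corticosteroid receptors.

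**Figure D1:**
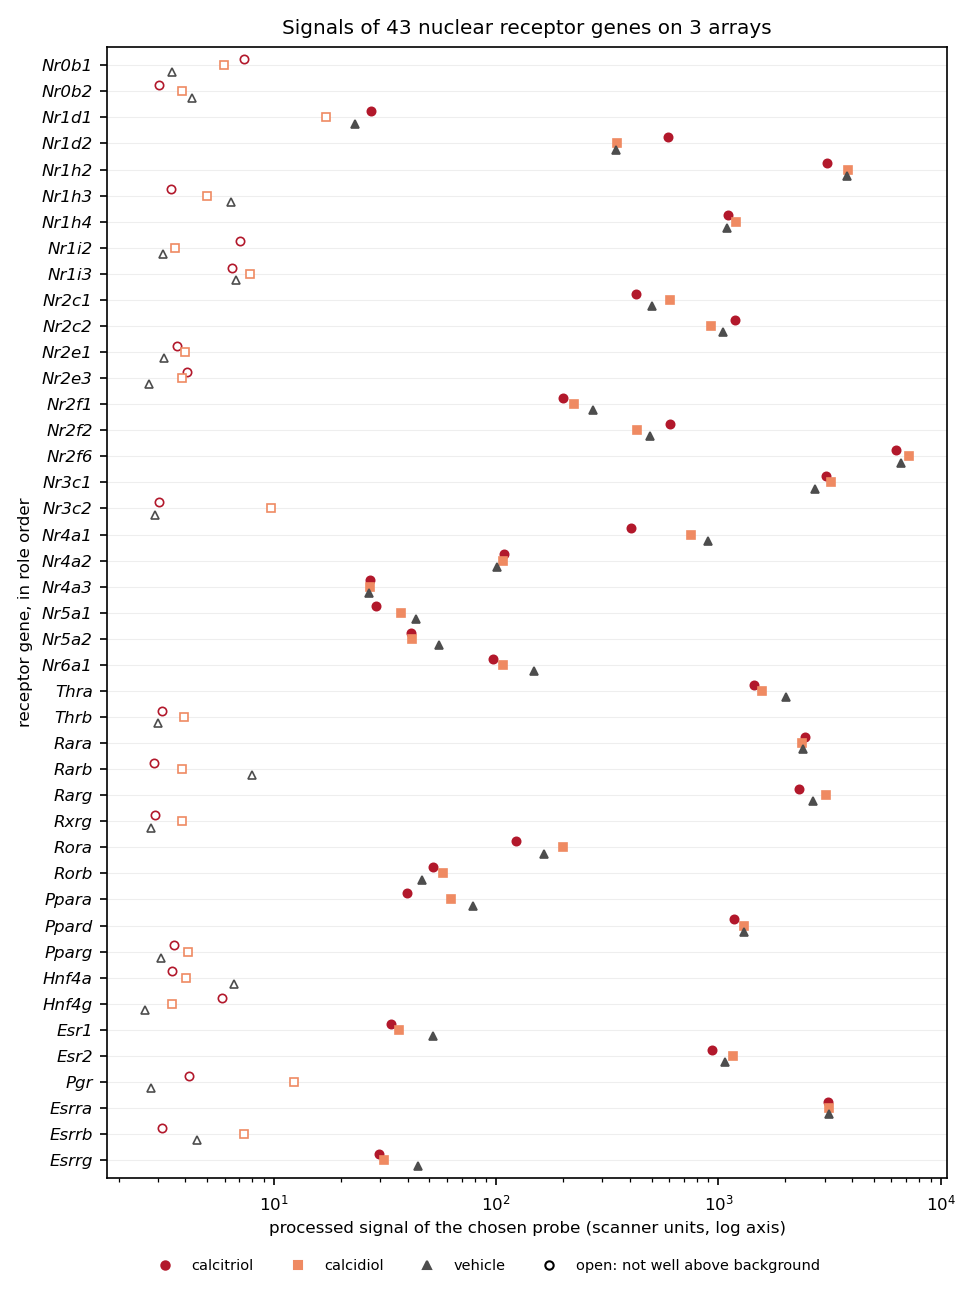
Scanner signal of each receptor (log axis, linear scanner units) on the calcitriol, calcidiol and vehicle arrays, 1 point per array, with spots not well above background drawn as open points. The 26 receptors measured on all arrays lie at or above 26.9, and the 16 not well above background lie at or under 12.4.

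Relative to vehicle, calcitriol left 2 of 27 receptors at least 2-fold lower, Nr4a1 and Ppara, and none as far above vehicle, among those compared. Over all 16671 genes compared, 1.01% reached 2-fold upward and 1.57% reached 2-fold downward. The receptors ranged between -1.17 and 0.77, 8 lay above 0 and 19 below, and their median was -0.21 beside 0.01 over all genes. At 1.5-fold, 1 receptor was higher (3.58% of all genes) and 6 were lower (5.87% of all genes). The difference exceeded 2 scanner errors for 10 of the 27, against 15.6% of all genes. Among markers of other cell types, the 3 measured fibroblast genes Col1a1, Dcn and Postn, of 6 on the list, were each 2-fold lower with calcitriol. Their list summed to 416.8 with calcitriol, 961.2 with calcidiol and 2062 with vehicle, with Col1a2, Pdgfra and Pdgfrb not well above background. Their part in the receptor values was not tested.

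Calcidiol left no receptor 2-fold apart from vehicle in either direction, of 26 compared, where 0.858% of 16664 genes reached 2-fold upward and 0.144% downward. The range was -0.61 to 0.22, with 8 receptors above 0 and 18 below. The median was -0.11, against -0.00 over all genes. At 1.5-fold none was higher (2.92% of all genes) and 2 were lower, Esr1 and Esrrg (1.3% of all genes). For Esrrg the mean over its probes was -0.49, short of 1.5-fold. Of the 26, 5 exceeded 2 scanner errors, beside 7.09% of all genes. The calcitriol and calcidiol differences share the vehicle array, so a high or low spot on it enters both.

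Of the 6 receptors at least 1.5-fold lower with calcitriol, all but Nr4a1 were dim, in the lowest 25% by signal. Among genes in the lowest 25% by signal, 10 receptors had a median of -0.52 with calcitriol, beside -0.07 for all genes there. The 6 receptors in the brightest 25% had a median of -0.06, beside 0.05 for all genes there. With calcidiol, the 9 receptors of the lowest 25% had a median of -0.43 and the 6 of the brightest -0.04, beside 0.02 and 0.00 for all genes.

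**Figure D2:**
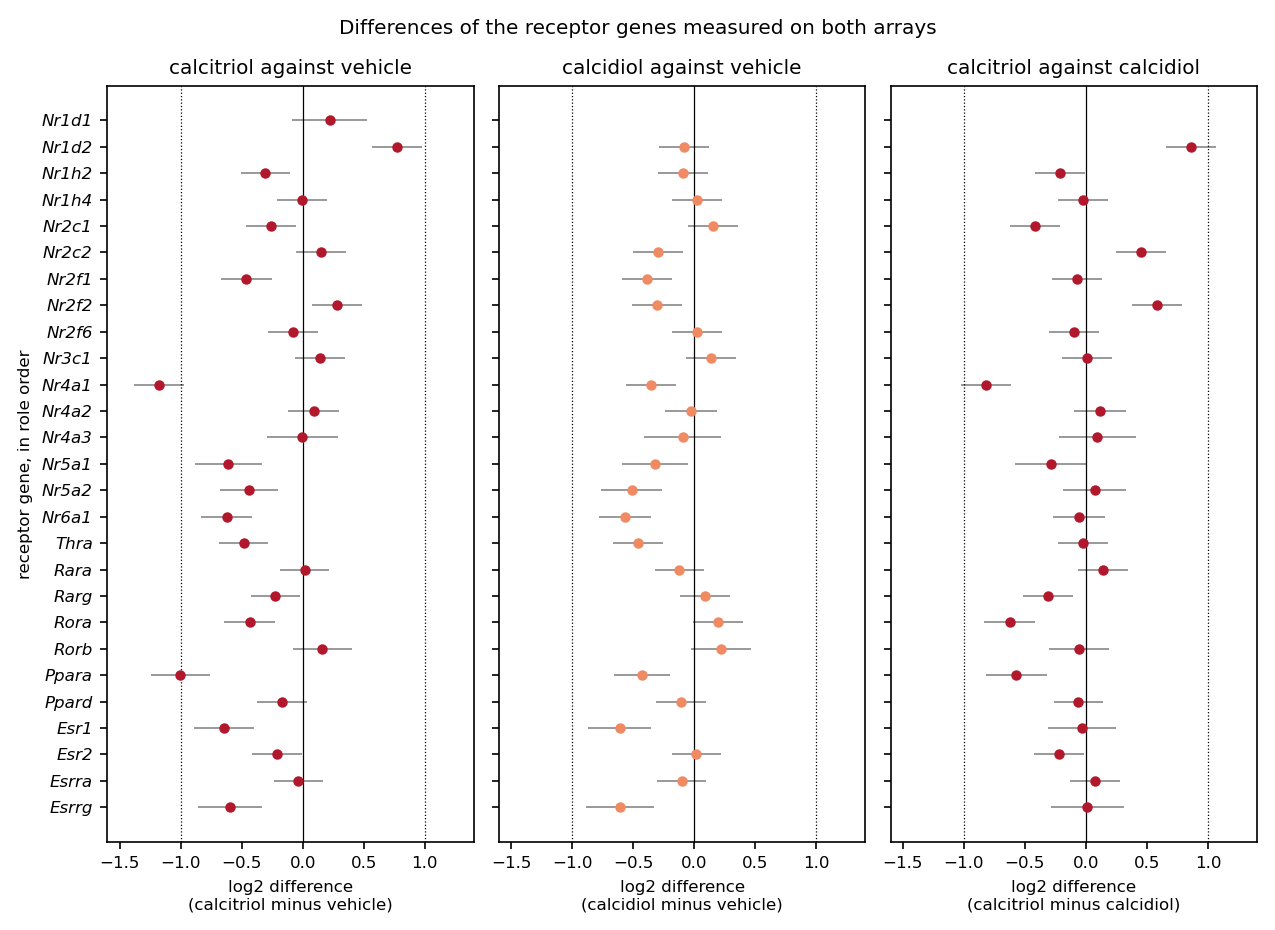
Log2 difference of each measured receptor, ordered by role, for calcitriol against vehicle, calcidiol against vehicle and calcitriol against calcidiol, with the scanner's error as bars and dotted lines at 2-fold. Nr4a1 (-1.17) and Ppara (-1.0) reach the lower line with calcitriol, and no point reaches a line with calcidiol.

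The NR4A receptors are immediate-early orphan receptors switched on by growth factors, cyclic AMP and stress. Nr4a1, also called Nur77, read 402 with calcitriol, 754 with calcidiol and 897 with vehicle. The calcitriol array was the low one and the other arrays lay closer together. The difference was -1.17 ± 0.20 with calcitriol, and 0.918% of all genes were as low or lower. It was -0.36 ± 0.20 with calcidiol (5.63% of genes). Nr4a1 was read by 1 probe only, 22 rows or columns from the array edge. Its relative Nr4a2 (Nurr1) read 108.9, 106.9 and 101.2 with calcitriol, calcidiol and vehicle, a difference of 0.09 ± 0.21 with calcitriol. Nr4a3 (Nor1) read 27.2, 27.1 and 26.9, so on their brightest probes both relatives lay within the scanner error of vehicle. The other Nr4a3 probes were near background on every array. Another Nr4a2 probe gave 66.6, 60.6 and 47.9, or 0.46 ± 0.23 with calcitriol and 0.23 ± 0.24 with calcidiol, so with calcitriol it lay outside that error.

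The PPAR receptors sense fatty acids. Ppara, which drives fatty acid oxidation, read 39.8 with calcitriol, 62.8 with calcidiol and 78.7 with vehicle. The levels were in that order on the 3 arrays and all were dim. The difference was -1.0 ± 0.24 with calcitriol, at the 2-fold line, and -0.43 ± 0.23 with calcidiol. A dimmer probe read 15.2, 15.6 (not well above background) and 20.4, a difference of -0.44 with calcitriol. The Ppara value with calcitriol was -0.64 with an offset of 32 added to every signal, and -0.40 after normexp background correction and quantile normalization together. Ppard, the broadly expressed form, read 1169, 1299 and 1299, with differences of -0.17 ± 0.20 and -0.11 ± 0.20. Pparg, the adipogenic form, was not measured by an unflagged probe.

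Nr1d1 and Nr1d2, called REV-ERBα and REV-ERBβ, are haem-binding repressors of the clock gene Arntl, and the ROR receptors compete with them as activators. Nr1d2 read 596 with calcitriol, 350.1 with calcidiol and 345 with vehicle. The calcidiol and vehicle arrays lay together, and the calcitriol array stood above them. Its difference of 0.77 ± 0.20 was the highest among the receptors, and 1.83% of all genes were as high or higher, while calcidiol gave -0.08 ± 0.20. This spot lay 5 rows or columns from the edge. The other Nr1d2 probes, 21 and 32 rows or columns in, gave 0.43 and 0.75 with calcitriol, and 0.06 and -0.03 with calcidiol. Nr1d1 read 27.2 with calcitriol, 17.1 with calcidiol (not well above background) and 23.1 with vehicle, a difference of 0.22 ± 0.31 with calcitriol. Against calcidiol, Nr1d1 was at least 1.62-fold higher with calcitriol. Calcidiol against vehicle gave a bound of 1.39-fold lower, set by the lowest signal well above background on the calcidiol array (17.9). Neither Nr1d1 bound carries a scanner error and all these signals were dim, so a lower level with calcidiol was not shown.

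Rora, an activator of the same clock elements, read 122.4, 200.7 and 163.3 with calcitriol, calcidiol and vehicle. Its calcitriol value was the lowest and its calcidiol value the highest, at -0.43 ± 0.21 and 0.19 ± 0.21 from vehicle. Rorb, best known from brain and retina, read 52.2, 57.8 and 46.2, with differences of 0.16 ± 0.24 and 0.22 ± 0.24. Of 14 clock genes beside these receptors, 11 were measured and none was 2-fold apart with either compound. Their median was -0.24 in both comparisons with vehicle. Per2, a repressor of the clock loop, was the lowest in both, at 114 with calcitriol, 154.4 with calcidiol and 208.6 with vehicle. That gave -0.89 ± 0.21 and -0.54. Arntl, the gene that REV-ERB proteins repress, read 573.8, 703.7 and 696.2, or -0.30 and -0.09. Clock, its partner, read 1083, 990.7 and 1128.

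**Figure D3:**
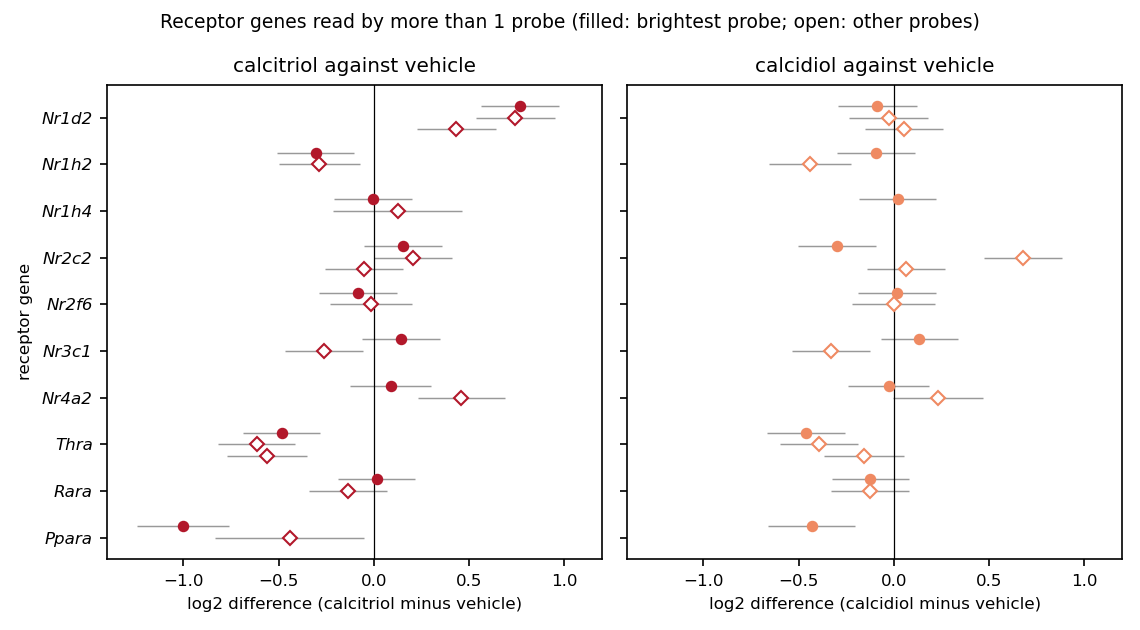
Log2 differences by probe for the 10 receptors with several probes well above background with calcitriol and vehicle, with calcitriol (left) and with calcidiol (right) against vehicle, 1 point per probe, filled for the brightest probe and open for others, with the scanner's error as bars. The Nr1d2 probes gave 0.77, 0.75 and 0.43 with calcitriol, and the Nr2c2 probes spread widest with calcidiol, by 0.98.

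Among the sterol and bile acid receptors, Nr1h2 (LXRβ) and Nr1h4 (FXR) were measured. Nr1h2 read 3093, 3815 and 3777 with calcitriol, calcidiol and vehicle, or -0.30 ± 0.20 and -0.09 ± 0.20. A dimmer Nr1h2 probe gave -0.29 and -0.44. Nr1h4 read 1107, 1198 and 1097, within 0.03 of vehicle with each compound. Another Nr1h4 probe read 22.7, 16.8 (not well above background) and 20.5, so the brightest probe alone put this bile acid receptor among the clearly detected members. Of 10 LXR target genes, 7 could be compared, none was 2-fold apart, and the medians were -0.26 with calcitriol and -0.06 with calcidiol. The cholesterol exporter Abca1 and the sterol transporter Abcg5 had no vehicle level. Abca1 read 89.4, 67 and 7.50, at least 6.62-fold higher with calcitriol and 4.66-fold with calcidiol as the lower bounds. Its other probe was near background on every array (3.00, 5.60 and 2.79), so these bounds rest on 1 probe. Abcg5 read 64.7, 37.9 and 3.02, at least 4.78-fold and 2.64-fold higher. The LXR target Mylip, a ligase for the low-density lipoprotein receptor, was the lowest of the list with calcitriol at -0.71. None of the 11 genes on the list for HNF4 and FXR targets could be compared with vehicle, and 10 were near background throughout.

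The COUP receptors and their relatives are orphan receptors, mostly repressors. Nr2f1 (COUP-TFI) read 200.4, 224.5 and 272.7 with calcitriol, calcidiol and vehicle, or -0.46 ± 0.21 and -0.39 ± 0.21. Nr2f2 (COUP-TFII) read 604, 429 and 491, or 0.28 ± 0.20 and -0.30 ± 0.20. The 2 close relatives thus lay on opposite sides of 0 with calcitriol. Nr2f6 read 6303, 7194 and 6596 and differed from vehicle by -0.08 and 0.02. Nr2c1 (TR2) read 426, 605 and 504, or -0.26 and 0.16, and only 1 of its 3 probes was well above background on all arrays. Nr2c2 (TR4) read 1183, 922 and 1052, or 0.15 and -0.30, but its 3 probes gave -0.30, 0.07 and 0.68 with calcidiol, the last from a spot 2 rows or columns from the edge. No direction with calcidiol can be given for Nr2c2.

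Nr3c1 was well detected and Nr3c2 was not. The glucocorticoid receptor Nr3c1 read 3044 with calcitriol, 3215 with calcidiol and 2721 with vehicle. The differences were 0.14 ± 0.20 and 0.14 ± 0.20, inside the scanner error. Another Nr3c1 probe read 1400, 1421 and 1659, or -0.26 and -0.33, so the probes had opposite signs. The mineralocorticoid receptor Nr3c2 read 3.04, 9.73 and 2.91 on its brightest of 3 probes, none of them well above background. The enzymes Hsd11b1 and Hsd11b2, which set cortisol access to these receptors, were not well above background either. Of 11 measured corticosteroid target genes, 1 was 2-fold higher with each compound and none lower, with medians of -0.30 with calcitriol and -0.01 with calcidiol. That gene was Sgk1, a kinase that raises sodium transport, with 2337, 3105 and 869, or 1.41 ± 0.20 and 1.73. Its spot was in the outermost row or column, and its other probe was near background. Another probe of the sodium channel gene Scnn1a read 389.4, 219.5 and 122.2, or 1.66 and 0.74, whereas the probe counted gave 0.10 and 0.03, so the probes of that target disagreed. The classical targets Fkbp5 and Tsc22d3 gave -0.37 and -0.37 with calcitriol, and -0.33 and -0.29 with calcidiol. Errfi1, the highest of the list with calcitriol against calcidiol, gave 0.92 from vehicle with calcitriol and 0.28 with calcidiol. Its other probe gave 0.90 and 0.64, and Cdkn1c gave 0.48 and 0.39. The lowest with calcitriol was the repressor gene Zbtb16 at -0.56.

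Nr5a1 (SF-1), the regulator of steroid-making cells, read 28.8, 37.5 and 43.5 with calcitriol, calcidiol and vehicle, or -0.61 ± 0.27 and -0.32 ± 0.27. With calcitriol the Nr5a1 value was -0.33 with the offset of 32 and -0.20 after normexp with quantile normalization. Nr5a2 (LRH-1) read 41.4, 41.9 and 55.6, or -0.44 ± 0.24 and -0.51 ± 0.25. Nr6a1 (GCNF), a repressor of pluripotency genes, read 97, 107.2 and 147.4, or -0.62 ± 0.21 and -0.57 ± 0.21. In these 3 genes the vehicle array was the highest. The Nr6a1 value exceeded 2 scanner errors with both compounds, and was -0.38 with calcitriol after normexp with quantile normalization. The other probes of Nr5a1 and Nr6a1 were near background on every array.

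Thra, the thyroid hormone receptor that was measured, read 1452 with calcitriol, 1571 with calcidiol and 2008 with vehicle. Both treated arrays were lower than vehicle, at -0.48 ± 0.20 with calcitriol and -0.46 ± 0.20 with calcidiol (2.85% of all genes were as low or lower with calcidiol). Its spot lay 4 rows or columns from the edge, but the other measured Thra probes, 79 and 56 rows or columns in, had the same sign with both compounds, at -0.61 and -0.56 with calcitriol and -0.39 and -0.16 with calcidiol. In the RefSeq table the Thra gene overlaps Nr1d1 on the opposite strand. Among 4 measured thyroid hormone target genes none was 2-fold apart, and the medians were -0.14 and -0.10. Klf9, a transcription factor induced by thyroid hormone and glucocorticoids, was the lowest at -0.30 with calcitriol and -0.62 with calcidiol. Its other probe, in the outermost row or column, gave 0.04 and 0.09, so no direction can be given for Klf9.

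The retinoic acid receptors Rara and Rarg were measured, and Rarb, itself a retinoic acid target, was not. Rara read 2450, 2370 and 2397 with calcitriol, calcidiol and vehicle, or 0.01 ± 0.20 and -0.12 ± 0.20. Rarg read 2302, 3040 and 2654, or -0.22 ± 0.20 and 0.09 ± 0.20. The other Rarg probes were near background on every array. Of 5 measured target genes, 1 was at least 2-fold higher with each compound, and the medians were 0.45 and 0.25. With calcitriol it was the transglutaminase Tgm2, at 10064, 6818 and 4840, or 1.04 ± 0.20 beside 0.39 with calcidiol. With calcidiol it was Stra6, the receptor for retinol-binding protein, at 191.5, 438.3 and 97.6, or 2.06 beside 0.95 with calcitriol. Set directly against calcidiol, calcitriol gave -1.11 for Stra6.

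Esr1 and Esr2 are the estrogen receptors. Esr1 read 33.7, 36.7 and 52.1 with calcitriol, calcidiol and vehicle. Both treated arrays were lower than vehicle, at -0.64 ± 0.25 and -0.61 ± 0.26, and 1.07% of all genes were as low or lower with calcidiol. Only 1 of its 7 probes was well above background on all arrays. Esr2 read 933, 1160 and 1065, or -0.21 ± 0.20 and 0.02 ± 0.20, while its other probe stayed near background (2.86, 3.67 and 2.72). Of 7 estrogen and progesterone target genes, 2 could be compared with calcitriol and 3 with calcidiol, with medians of -0.02 and -0.10. Wnt4, a signalling ligand, lay above vehicle at 0.24 and 0.11. Igfbp4, a growth factor binding protein, read 12.2 (not well above background), 21.8 and 54.7, at least 4-fold lower with calcitriol and -1.43 with calcidiol, the 1 gene of the list past 2-fold. The related orphan receptors Esrra and Esrrg drive mitochondrial genes. Esrra read 3097, 3137 and 3136, or -0.03 and -0.11. Esrrg read 29.7, 31.3 and 44.3, or -0.60 ± 0.26 and -0.61 ± 0.28. Another Esrrg probe read 11.9 (not well above background), 25.8 and 31.2, or -0.38 ± 0.315 with calcidiol. With calcitriol, Esr1 and Esrrg were -0.37 and -0.32 with the offset of 32, and -0.24 and -0.19 after normexp with quantile normalization. With calcidiol normexp with quantile normalization gave -0.30 and -0.28. Of 9 measured target genes of these receptors none was 2-fold apart, with medians of 0.05 and 0.06. The coactivator gene Ppargc1a read 1331, 1362 and 1517, or -0.20 and -0.26.

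Receptors act through coregulators, and 20 of 20 on the list were measured. Nrip1, a corepressor also called RIP140, was 2-fold higher with calcitriol and the only such gene of the list. It read 1170 with calcitriol, 909 with calcidiol and 523 with vehicle. Each treated array was higher than vehicle, by 1.14 ± 0.20 and 0.69. The list's median was 0.05 with calcitriol and -0.04 with calcidiol. The 7 measured enzymes and transporters of receptor ligands held none at 2-fold, with medians of -0.16 and -0.11, and 12 of the 20 found on the array were near background throughout. Of 9 measured PPAR target genes, none was 2-fold apart with calcitriol and 1 was higher with calcidiol. That was Fabp4, a fatty acid binding protein, at 35.8, 50.4 and 20.3, or 0.80 ± 0.32 and 1.21. Pdk4, which restrains glucose oxidation, was the lowest in both at 161.8, 220.9 and 295.4, or -0.89 and -0.53.

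**Figure D4:**
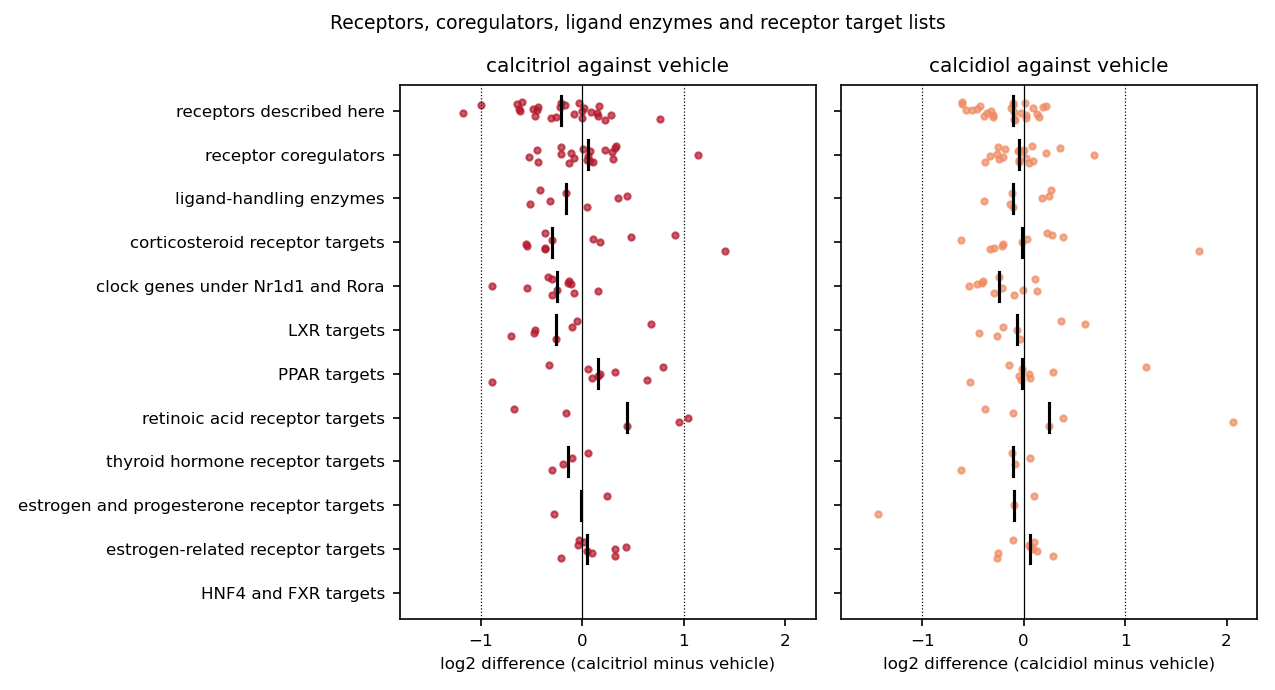
Log2 differences from vehicle of the measured receptors (top row) and of the measured genes of each pathway list, with calcitriol (left) and with calcidiol (right), 1 point per gene, black bars at the list medians and dotted lines at 2-fold. The list for HNF4 and FXR targets has no point because 0 of its 11 genes could be compared, and the list genes past 2-fold in at least 1 panel are Nrip1, Sgk1, Tgm2, Stra6, Fabp4 and Igfbp4.

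The compounds, which differ by 1 hydroxyl group, were given at the same dose and time and were set against each other directly as 1 pair. None of 26 receptors was 2-fold apart, where 0.466% of 16517 genes reached 2-fold upward with calcitriol and 1.37% downward. The receptors ranged between -0.82 and 0.86, with a median of -0.04 beside 0.02 over all genes, 10 above 0 and 16 below. At 1.5-fold, 1 was higher (2.29% of all genes) and 2 were lower (5.38%). Nr1d2 was higher with calcitriol by 0.86 ± 0.20, and 0.733% of genes were as high or higher, though leaving out the spots near the edge gave 0.37. Nr4a1 was lower with calcitriol at -0.82 ± 0.20 (2.36% of genes as low or lower), and Rora at -0.62 ± 0.21 (4.63%). Nr2f2 followed at 0.58 ± 0.20 (2.32% as high or higher) and Ppara at -0.57 ± 0.25. After normexp background correction with quantile normalization these were 0.11 and -0.19. Thra, Esr1, Esrrg, Nr6a1 and Nr3c1 lay between -0.06 and 0.01 with calcitriol against calcidiol, with errors of 0.20 to 0.30. For Thra the difference of -0.02 ± 0.20 spans changes in either direction, and its other measured probes gave -0.22 ± 0.20 and -0.40 ± 0.21, so the compounds are not shown to act alike on it.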

How the data were processed

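Total RNA from 3 cultures was hybridised to 1 array each. Scanner files deposited by the authors give a linear intensity per spot. Background was subtracted by Agilent Feature Extraction and probes carry mm9 positions, per the file headers, which record version 10.7.1.1, while 9.5.1.1 stands in the submitters' processing notes. Slide and scan (1 of each) were common to the arrays per the file headers, and array position and group cannot be told apart. The authors' deposited value table holds 1 intensity per probe, with a log2 median of 3.71 in each column and a correlation with scanner log2 signals of at least 0.99992. The tool behind its normalization was not given in the sources used here, and the table served as an alternative.

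Control spots and flagged spots were left out (1489 of 56605 probes), no spot was saturated, log2 signals had each array's 75th percentile subtracted (249.6, 265.5 and 246.7 with calcitriol, calcidiol and vehicle), and genes were matched by the array's gene name. Differences needed a probe well above background on both arrays. Otherwise a bound was given, the bright level over a floor, which was the larger of the dim probe's value and that array's lowest signal well above background. Over 300 probes printed 10 times, the median coefficient of variation was 9.76%, 3.76% and 7.37%. Counting was tested on simulated data. No test was run. Members were chosen, and lists and the naming rule fixed, with earlier results of these data known. The rule gave values for members at least 0.5 apart on the log2 scale, with a 2-fold bound or with a set role, and list genes named were 2-fold apart, at a list's ends, or chosen after their values were seen (Arntl, Clock, Fkbp5, Tsc22d3, Cdkn1c). Aldh1a1, Mt2, Vnn1 and Crabp2 were on lists but not analysed here, and some results on list genes are not reported here. Python 3.11.15, numpy 2.4.6, pandas 2.3.3, matplotlib 3.10.9, R 4.3.3 and limma 3.58.1 were used.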

Additional observations from a re-analysis of the deposited data

How the results depend on the processing

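Other scalings, background corrections, filters, probe rules, thresholds and the value table were tried, 1 at a time except that normexp background correction was combined with quantile normalization. Of 116 alternatives to the counts and medians, 100 counted as alike and 16 as moved. Alike meant equal counts, counts within 1.5-fold where neither was 0, or medians within the median scanner error of 1 gene (0.20). Counts of 0 that stayed 0 were among those alike, so the tally is a loose one. The error of 0.20 was also large beside the receptor medians of -0.21, -0.11 and -0.04. The median for calcitriol against calcidiol counted as alike though median centring took it from -0.04 to 0.16. Receptors at least 0.5 apart in the main run gave 166 further values, of which 18 moved by more than their error. None changed sign, which the choice of large differences made likely. Smaller differences were not followed. Without the lowest 25% by signal, 17 receptors counted as measured on all arrays in place of 26. Only Nr4a1 (1 receptor) was at least 2-fold lower with calcitriol under median centring, quantile normalization, cyclic loess, normexp with quantile normalization, an offset of 32, the lowest 25% left out, the mean over probes and the value table. The value table and quantile normalization gave the same counts over all genes (179 higher and 232 lower with calcitriol). They were therefore not separate checks. At 1.5-fold, 1 receptor was higher and 6 were lower with calcitriol, 2 were lower with calcidiol, and 1 was higher and 2 were lower with calcitriol against calcidiol. At 3-fold, 0 were lower with calcitriol. Median centring made 1 receptor, Nr1d2, 2-fold higher with calcitriol than with calcidiol. Over the alternatives Nr4a1 lay between -1.19 and -1.05 with calcitriol, Ppara between -1.01 and -0.40, and Nr1d2 between 0.43 and 0.89. Median centring moved the median of all genes to 0.13, -0.09 and 0.22 for calcitriol against vehicle, calcidiol against vehicle and calcitriol against calcidiol, and the medians of the receptors to -0.09, -0.19 and 0.16. The share of higher genes among all genes 2-fold apart was then 55.9%, 73.3% and 55.3%, against 39.1%, 85.6% and 25.4%. Of all genes, normexp with quantile normalization put 0.558% higher and 0.63% lower with calcitriol, and a call on at least 1 of both arrays put 2% higher and 3.44% lower, against 1.01% and 1.57%. The cause of these shifts was not tested. No paired analysis was possible because each group had 1 array, and no replicate could be left out. Signals near background limit the receptors in the lowest 25% by signal.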

Other observations

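Some receptors read differently through other probes. The Pparg probe left out for an outlier flag on the calcidiol array read 49.8 with calcitriol, 58.5 with calcidiol and 43.3 with vehicle, well above background on all 3, or 0.19 with calcitriol and 0.33 with calcidiol. Another Rora probe was well above background on the calcidiol array only, at 27.9, beside 3.97 with calcitriol and 14.6 with vehicle. Over receptors with at least 2 probes well above background, the probes had 1 sign for 6 of 10 receptors with calcitriol and for 5 of 10 with calcidiol. Their median range between probes was 0.20 and 0.24, and the widest were Ppara (0.56) and Nr2c2 (0.98).

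Among markers of other nephron segments and cells, the endocytic receptor Lrp2 of the proximal tubule read 5090 with calcitriol, 3812 with calcidiol and 1923 with vehicle, or 1.39 and 0.88. The other Lrp2 probes gave 0.87, 0.66 and 0.89 with calcitriol, and -0.05, 0.07 and 0.70 with calcidiol. A higher level with calcidiol was thus not seen on all of its probes. The other measured genes of the proximal tubule list of 7 lay below 0, Aqp1 at -0.67 and -0.61 and Cubn at -0.17 and -0.02. The medians were -0.17 and -0.02, and 4 of the 7 were near background throughout. The thick ascending limb and intercalated cell lists, 4 genes each, had no member well above background on any array. Kdr, the 1 endothelial gene measured of 4, read 66.4, 101.7 and 117.7, or -0.84 and -0.32. The other Kdr probes were near background on every array. Of 4 leukocyte genes, 2 were well above background on all arrays, and their list summed to 454.8, 570.2 and 458.8. Most of that sum came from 1 Ptprc probe (338.9, 418.8 and 322), and the other unflagged Ptprc probes were near background. A single probe of Kdr or Ptprc does not show that endothelial cells or leukocytes were present. Of 7 markers of connecting tubule and principal cells, 3 were measured, and that list summed to 474.4, 511.3 and 514.1.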
